A study of Homo sapiens with 8 samples.

Results

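The nuclear genes of oxidative phosphorylation were followed in RNA from 2 human cell lines of T-lineage acute lymphoblastic leukaemia, DND-41 and MOLT-4, after the degrader ACBI-1. Genes were taken by symbol: those starting NDUFA, NDUFB, NDUFC, NDUFS or NDUFV (complex I), UQCR (complex III), COX4 to COX8 (complex IV) or ATP5 (ATP synthase), the succinate dehydrogenase genes SDHA, SDHB, SDHC and SDHD (complex II), and CYC1. Assembly factors starting NDUFAF and names ending like a pseudogene were left out, and at least 100 raw counts were required in each of the 8 libraries. The rule found 77 genes among 63677. They comprised 34 genes of complex I, 4 of complex II, 9 of complex III, 11 of complex IV and 15 of ATP synthase, which makes 73 subunits, and 4 genes that encode no subunit. Of 110 rows (gene identifiers) that matched, 17 had no count and 16 had counts below the minimum. Many of these are further identifiers of a member's symbol, such as NDUFA3, NDUFA6 or NDUFB8, so they do not count silent genes. Just inside the minimum were ATP5S, with 104 to 182 counts, and NDUFA6-AS1, with 105 to 208. Just outside were NDUFA13, with 35 to 90 counts, and NDUFA4L2, with 26 to 229. NDUFV2, a core subunit of complex I, had only 15 to 28 counts and is no member. In the annotation used for exon lengths, 41.1% of the exon bases of NDUFV2 lie in another gene on the same strand. For NDUFA13 the share is 26.5%, and NDUFA4L2 has none. The member ATP5O has a share of 70.3% and had 1089 to 1609 counts. Whether counting lost reads of NDUFV2 or NDUFA13 was not tested, so their low counts need not mean low expression.

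The 4 groups were DND-41 cells with DMSO, DND-41 cells with 100 nM ACBI-1, MOLT-4 cells with DMSO and MOLT-4 cells with 100 nM ACBI-1. All were harvested after 8 h, with 2 libraries in each group. DMSO is the solvent. ACBI-1 recruits the VHL ubiquitin ligase to SMARCA2, SMARCA4 and PBRM1, which are subunits of BAF and PBAF chromatin remodelling complexes, so that these proteins are degraded. Each line stands for itself and not for a class of leukaemia. The labels do not say that replicate libraries came from separate cultures. A p-value here sets a difference between groups against the variation among these libraries, and that variation may be technical.

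Oxidative phosphorylation couples electron transport in the inner mitochondrial membrane to the synthesis of ATP. Complex I takes electrons from NADH and complex II takes them from succinate. Complex III passes them to cytochrome c, and complex IV passes them on to oxygen. Complexes I, III and IV pump protons, and ATP synthase uses the returning protons to make ATP. Most subunits are encoded in the nucleus and imported, while a small set of core subunits is encoded in mitochondrial DNA. The transcription factors NRF1, GABP and YY1 bind the promoters of many of the nuclear genes, and the receptor ESRRA and its coactivators of the PPARGC1 family drive them in tissues with a high energy demand.

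Library totals ran from 19860759 to 20239888 counts, of which the 77 genes held 0.654% to 0.750%. Levels are CPM, counts scaled to a common library total after TMM adjustment. They are shares of a library, so a change in RNA per cell that touches all genes cannot be seen, and in bulk RNA fewer cells of a type and less RNA per cell cannot be told apart. A positive log2 fold change is a higher level with ACBI-1 than with DMSO, and its SE comes from edgeR's quasi-likelihood fit of 2 libraries against 2. A gene was called at an edgeR adjusted p below 0.05 over all genes tested.

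Some libraries stood apart. In both MOLT-4 replicate 2 libraries COL1A1, a collagen gene of stromal cells, was found at 55.4 CPM (DMSO) and 11.4 CPM (ACBI-1), against 2.20 and 0 CPM in the replicate 1 libraries. The summed level of the 3 epithelial or stromal markers (COL1A1, KRT8 and EPCAM) was 3.72 and 57.8 CPM with DMSO and 0.687 and 12.4 CPM with ACBI-1 in MOLT-4, and at most 0.190 CPM in DND-41, with EPCAM at 0 throughout. In DND-41 only 4 of the 77 genes were higher in replicate 2 than in replicate 1 with ACBI-1 (median log2 difference -0.13), and 16 with DMSO (median -0.08). In MOLT-4 the median replicate differences were 0.01 and 0.04. The part of these differences in the results was not tested, and counts are given below with and without the libraries. All 5 T-lineage markers (CD3E, CD3G, CD7, CD2 and LCK) were present in every library, and they also moved with ACBI-1. In DND-41, 2 were higher and 3 lower, from -0.98 (CD7) to 1.64 (CD3G), and in MOLT-4, 1 was higher and 3 lower, from -1.39 (CD7) to 1.11 (CD3G). Their summed level was 3934 and 4044 CPM with DMSO and 4379 and 4183 CPM with ACBI-1 in DND-41, and 2218 and 2020 CPM with DMSO and 2089 and 2078 CPM with ACBI-1 in MOLT-4. Between the DMSO libraries 2 were higher and 2 lower in MOLT-4, with CD7 at -4.82. Their part in the results was not tested. Erythroid markers were at 0. The summed myeloid markers reached at most 0.447 CPM and the B-lineage markers at most 0.993 CPM, with MS4A1 at 0. The transcript of the targeted ATPase SMARCA4 was higher with ACBI-1 in DND-41 (log2 fold change 0.34 ± 0.06 with adjusted p = 2.84e-04, edgeR) and in MOLT-4 (0.19 ± 0.06, adjusted p = 0.0187), while the degrader acts on the protein, which was not measured. The MOLT-4 call was lost without ACBI-1 replicate 1 or 2 (0.20 for each) and in edgeR with library size alone (0.11, adjusted p = 0.398). SMARCA2 was at -0.19 ± 0.07 and 0.14 ± 0.08 and PBRM1 at 0.06 ± 0.07 and -0.16 ± 0.06, called lower in DND-41 (SMARCA2) and in MOLT-4 (PBRM1). The SMARCA2 call was lost in 5 alternatives, among them DESeq2 (adjusted p = 0.135) and removal of ACBI-1 replicate 1 (0.138) or DMSO replicate 2 (0.389). The PBRM1 call was lost in 6, among them DESeq2 (adjusted p = 0.0929) and removal of ACBI-1 replicate 2 (-0.08, 0.461) or DMSO replicate 2 (0.0605).

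Promoters are shown for 6 members, to set binding-site letters beside the response. Of these, 2 rose in both lines, 1 fell in both, 1 was called lower in MOLT-4 only, and 2 were called in neither line. They are examples and do not give the share of members with a match. Each sequence runs 5′ to 3′ from 200 bases before the RefSeq start to 30 bases of transcript, in the GRCh38.p14 build. Capitals mark exact matches, on either strand, of 3 motifs: CCGGAAG (GABP), CGCATGCG (the core of the NRF1 site, which reads the same on both strands) and AAGATGGCG (YY1). No matches overlapped in these windows. The positions were chr3:120596136-120596365 (+ strand) for NDUFB4, chr22:42090733-42090962 (+ strand) for NDUFA6-AS1, chr18:46104198-46104427 (- strand) for ATP5A1, chr11:47578874-47579103 (+ strand) for NDUFS3, chr2:97645862-97646091 (+ strand) for COX5B and chr21:25735025-25735254 (- strand) for ATP5J.
NDUFB4: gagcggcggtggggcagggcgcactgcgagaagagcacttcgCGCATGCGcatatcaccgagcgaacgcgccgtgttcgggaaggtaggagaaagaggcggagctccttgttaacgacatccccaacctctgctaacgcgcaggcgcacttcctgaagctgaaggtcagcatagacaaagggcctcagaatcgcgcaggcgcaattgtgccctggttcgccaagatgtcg
NDUFA6-AS1: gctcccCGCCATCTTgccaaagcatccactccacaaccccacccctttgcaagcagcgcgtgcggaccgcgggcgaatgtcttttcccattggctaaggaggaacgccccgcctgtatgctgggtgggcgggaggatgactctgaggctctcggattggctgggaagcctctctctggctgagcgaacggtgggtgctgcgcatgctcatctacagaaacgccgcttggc
ATP5A1: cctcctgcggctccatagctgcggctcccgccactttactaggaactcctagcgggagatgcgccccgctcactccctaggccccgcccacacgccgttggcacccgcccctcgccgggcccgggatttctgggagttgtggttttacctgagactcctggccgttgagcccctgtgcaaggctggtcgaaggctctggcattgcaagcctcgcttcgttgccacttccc
NDUFS3: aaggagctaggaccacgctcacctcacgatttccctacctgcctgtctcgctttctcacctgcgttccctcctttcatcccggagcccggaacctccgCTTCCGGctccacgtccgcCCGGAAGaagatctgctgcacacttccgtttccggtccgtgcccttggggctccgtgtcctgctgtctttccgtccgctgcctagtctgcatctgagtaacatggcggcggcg
COX5B: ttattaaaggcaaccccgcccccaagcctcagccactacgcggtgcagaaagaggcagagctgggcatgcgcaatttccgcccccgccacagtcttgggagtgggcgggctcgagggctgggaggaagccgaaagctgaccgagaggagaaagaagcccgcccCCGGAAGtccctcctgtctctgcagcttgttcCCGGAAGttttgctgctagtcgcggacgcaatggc
ATP5J: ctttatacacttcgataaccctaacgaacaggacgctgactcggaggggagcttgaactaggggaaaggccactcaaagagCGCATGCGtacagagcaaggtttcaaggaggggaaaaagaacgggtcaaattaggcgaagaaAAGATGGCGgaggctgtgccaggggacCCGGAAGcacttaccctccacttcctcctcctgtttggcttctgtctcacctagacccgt

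NDUFB4, which rose in both lines, carried an NRF1 match, and NDUFA6-AS1, which rose in both, carried a YY1 match. That match is the same stretch of bases as the YY1 match of NDUFA6, which was called in neither line: it starts 194 bases before the start of NDUFA6-AS1 and, on the other strand, 25 bases after the start of NDUFA6. ATP5A1, which fell in both lines, carried none of the 3. NDUFS3, which fell in MOLT-4, and COX5B, which was called in neither line, each carried 2 GABP matches. ATP5J, also called in neither line, carried a match of each of the 3 motifs. Promoters of 300 bases were found for 62 of the 77 members, 1 per gene as first listed. CCGGAAG stood in 18 of 62 (29.0%) and in 10.3% of all 35116 RefSeq promoters of that length. CGCATGCG stood in 10 (16.1%) against 2.02%, and AAGATGGCG in 8 (12.9%) against 1.75%, where NDUFA6 and NDUFA6-AS1 count separately for their shared match. At least 1 of the 3 stood in 29 (46.8%) against 13.1%. By complex, CCGGAAG was found in 5 of 9 promoters of complex IV and in 4 of 29 of complex I. Of the 18 members with CCGGAAG none was called higher in either line, none was called lower in DND-41, and 3 were called lower in MOLT-4 (NDUFS1, NDUFS3 and UQCRH). Of the 44 members without it, 10 were higher and 3 lower in DND-41, and 8 were higher and 1 lower in MOLT-4. Of the 10 members with CGCATGCG 3 were higher and 1 lower in DND-41, and 2 were higher and none lower in MOLT-4. The 52 without it had 7 higher and 2 lower in DND-41, and 6 higher and 4 lower in MOLT-4. Of the 8 with AAGATGGCG 3 were higher in DND-41 and 2 in MOLT-4, with none lower, while the 54 without it had 7 higher and 3 lower in DND-41, and 6 higher and 4 lower in MOLT-4. Over all genes tested, 20.0% were higher and 23.2% lower in DND-41 after ACBI-1, and 20.7% and 24.4% in MOLT-4. A match of letters is no evidence of binding, and the counts of members carry no test.

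After ACBI-1 the nuclear oxidative phosphorylation genes differed by small amounts and in both directions. In DND-41, 13 of 77 were higher and 4 lower, where 20.0% of the 14008 genes tested were higher and 23.2% lower. In MOLT-4, 11 were higher and 5 lower, where 20.7% of 14239 genes were higher and 24.4% lower. No member changed 2-fold in either line. The median log2 fold change of the 77 genes was 0.05 in DND-41 and 0.03 in MOLT-4, against medians of 0.01 and 0.00 over all genes tested. Called members had a median size of 0.28 and 0.26 on the log2 scale. In both lines 52 members were not called, 6 were higher in both, 2 were lower in both, and none was higher in one line and lower in the other. Of the 12859 genes tested in both lines, 1546 were higher in both, 2011 were lower in both, 98 were higher in DND-41 and lower in MOLT-4, and 118 the reverse.

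The DND-41 counts turned on single libraries. Without ACBI-1 replicate 1 there were 10 higher and 11 lower, without ACBI-1 replicate 2 there were 30 higher and 4 lower, without DMSO replicate 1 there were 10 and 3, and without DMSO replicate 2 there were 4 and 5. The median moved from 0.05 to between -0.04 and 0.11. In MOLT-4 the corresponding counts were 8 to 13 higher and 3 to 8 lower, with 3 lower without ACBI-1 replicate 2 and 8 lower without DMSO replicate 1. With both MOLT-4 replicate 2 libraries left out, which leaves 1 library against 1 and takes the spread from DND-41, 2 were higher (NDUFB4 and CYC1) and 1 lower (NDUFS5). Scaled by library size alone, MOLT-4 gave 6 higher and 8 lower. That scaling shifted members and other genes together: in MOLT-4 the median of all genes went from 0.00 to -0.08 and that of the members from 0.03 to -0.05. The median of all genes went to -0.09 between the DMSO libraries and to -0.12 for the difference between the lines. Calls that held at 0.05 in every alternative fixed with the design were UQCRB, UQCRC1 and NDUFA6-AS1 (higher) and NDUFS5, ATP5A1 and ATP5C1 (lower) in DND-41. In MOLT-4 they included NDUFB4, CYC1, ATP5G2, ATP5SL and NDUFA6-AS1 (higher) and NDUFS5 and NDUFS3 (lower).

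**Figure D1:**
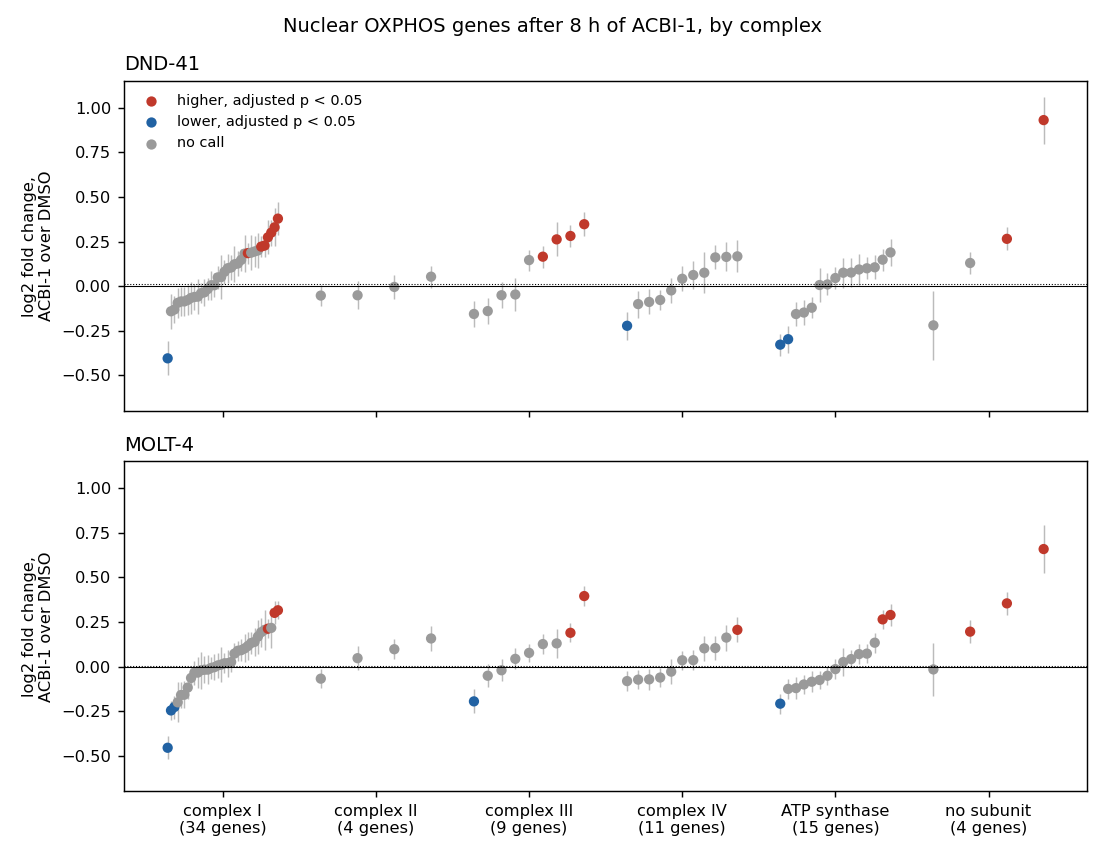
Log2 fold change (ACBI-1 over DMSO, ± SE) of each of the 77 genes, ordered by size within its complex, in DND-41 (top) and MOLT-4 (bottom). Red and blue points were called higher or lower at an edgeR adjusted p below 0.05, and the dotted line is the median of all genes. All members lie between -0.46 and 0.93, complex II has no called gene, and the highest point in each line is NDUFA6-AS1.

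Complex I is an L-shaped enzyme whose catalytic core is shared with bacteria and is surrounded by accessory subunits that stabilise it. Of its 34 members, 7 were higher and 1 lower in DND-41, where 20.0% of all genes tested were higher and 23.2% lower. In MOLT-4, 3 were higher and 3 lower, where 20.7% and 24.4% of all genes were. The medians of the members were 0.07 and 0.01. In DND-41 the rises numbered 14 without ACBI-1 replicate 2, 4 without DMSO replicate 1 and 1 without DMSO replicate 2, and the falls numbered 3 without ACBI-1 replicate 1. In MOLT-4 there were 5 falls without DMSO replicate 1 and 5 rises without DMSO replicate 2. Among the 6 core subunits, 3 were higher and none lower in DND-41, while 1 was higher and 2 (NDUFS1 and NDUFS3) were lower in MOLT-4.

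NDUFS5, an accessory subunit on the intermembrane side of the membrane arm, was the most strongly lowered member in both lines. It stood at 70.5 and 58.7 CPM with DMSO and 53.1 and 43.8 CPM with ACBI-1 in DND-41 (log2 fold change -0.40 ± 0.10 with adjusted p = 0.00339). In MOLT-4 it stood at 67.5 and 66.6 CPM with DMSO and 48.5 and 49.6 CPM with ACBI-1 (log2 fold change -0.46 ± 0.06 with adjusted p = 8.60e-06). All treated libraries lay below both controls of their line. NDUFB4, an accessory subunit of the membrane arm, moved the other way. It was measured at 117 and 122 CPM with DMSO and 140 and 137 CPM with ACBI-1 in DND-41 (log2 fold change 0.22 ± 0.06 with adjusted p = 0.00674) and at 117 and 115 CPM with DMSO and 145 and 145 CPM with ACBI-1 in MOLT-4 (log2 fold change 0.32 ± 0.05 with adjusted p = 4.35e-05). Its groups did not overlap in either line. The DND-41 call was lost when either DMSO library was left out (0.19 and 0.25, with adjusted p of 0.185 without replicate 1 and 0.0567 without replicate 2).

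NDUFS3, a core subunit of the peripheral arm, had 90.5 and 90.8 CPM with DMSO and 75.1 and 78.3 CPM with ACBI-1 in MOLT-4, with both treated libraries lower (log2 fold change -0.25 ± 0.06 with adjusted p = 0.00119). In DND-41 its groups overlapped (-0.07 ± 0.09, adjusted p = 0.592). NDUFS1, the largest core subunit, fell in MOLT-4 from 65.2 and 68.8 CPM to 58.6 and 56.2 CPM (log2 fold change -0.23 ± 0.06 with adjusted p = 0.00695), a call lost without ACBI-1 replicate 2 (-0.19, adjusted p = 0.0921). Its DND-41 value was -0.02 ± 0.06.

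The accessory subunit NDUFC1 rose in DND-41, where it had 25.9 and 22.4 CPM with DMSO and 33.3 and 29.0 CPM with ACBI-1 (log2 fold change 0.38 ± 0.09 with adjusted p = 0.00417). MOLT-4 levels were 34.5 and 37.9 CPM with DMSO and 35.2 and 36.5 CPM with ACBI-1, with overlapping groups (-0.02 ± 0.07). The difference between the lines did not reach the threshold (-0.38 ± 0.12, adjusted p = 0.0520), and the DND-41 call was lost without DMSO replicate 2 (0.28, adjusted p = 0.0647). NDUFA8, also higher in DND-41 (log2 fold change 0.33 ± 0.11 with adjusted p = 0.0210), lost its call in DESeq2, without ACBI-1 replicate 1 (adjusted p = 0.0564), and on removal of DMSO replicate 2 (0.274). Smaller rises were called for NDUFS7 (0.23), NDUFB6 (0.27) and NDUFV1 (0.19) in DND-41, each lost on removal of either DMSO library (adjusted p of 0.0972, 0.234 and 0.26 without replicate 1, and of 0.117, 0.091 and 0.151 without replicate 2). NDUFB6 also lost its call without ACBI-1 replicate 2 (adjusted p = 0.0684). NDUFA3 rose in MOLT-4 (log2 fold change 0.21 ± 0.05 with adjusted p = 0.00230), and was not called with library size alone (0.13). The other members of complex I ran from -0.14 to 0.20 in DND-41 and from -0.20 to 0.22 in MOLT-4 with no call.

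Complex II, succinate dehydrogenase, is also an enzyme of the tricarboxylic acid cycle and has no mitochondrially encoded subunit. None of its 4 genes was called in DND-41, where 20.0% of all genes tested were higher and 23.2% lower. None was called in MOLT-4, where 20.7% and 24.4% of all genes were. SDHA, the flavoprotein, had 100 and 101 CPM with DMSO and 96.5 and 95.5 CPM with ACBI-1 in DND-41 (-0.05 ± 0.06, adjusted p = 0.509) and a value of -0.07 ± 0.05 in MOLT-4. SDHB, the iron-sulfur subunit, was at 0.05 ± 0.06 and 0.10 ± 0.06. The membrane anchors were at -0.00 ± 0.07 and 0.05 ± 0.07 for SDHC and at -0.05 ± 0.08 and 0.16 ± 0.07 for SDHD, the latter with an adjusted p of 0.0788 in MOLT-4. These are the narrowest ranges of the complexes, from -0.05 to 0.05 in DND-41 and from -0.07 to 0.16 in MOLT-4. A range widens with the number of genes, and complex II has the fewest.

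Complex III holds cytochrome b, which is mitochondrially encoded, cytochrome c1 and the Rieske iron-sulfur protein. Of its 9 nuclear genes, 4 were higher and none lower in DND-41, where 20.0% of all genes tested were higher and 23.2% lower. In MOLT-4, 2 were higher and 1 lower, where 20.7% and 24.4% of all genes were. The medians of the members were 0.15 and 0.08. In DND-41 there were 2 rises and 2 falls without ACBI-1 replicate 1, and 2 rises without DMSO replicate 2. CYC1, cytochrome c1, had 192 and 203 CPM with DMSO and 268 and 253 CPM with ACBI-1 in MOLT-4 (log2 fold change 0.40 ± 0.06 with adjusted p = 9.34e-06). In DND-41 it had 187 and 177 CPM with DMSO and 210 and 194 CPM with ACBI-1 (log2 fold change 0.17 ± 0.06 with adjusted p = 0.0431). The treated libraries lay above both controls in each line, and the DND-41 call was lost with DESeq2 and without ACBI-1 replicate 1, DMSO replicate 1 or DMSO replicate 2 (adjusted p = 0.133, 0.155 and 0.403).

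UQCRC1, a core protein on the matrix side, had 168 and 164 CPM with DMSO and 211 and 189 CPM with ACBI-1 in DND-41 (log2 fold change 0.28 ± 0.06 with adjusted p = 0.00247). MOLT-4 values were 131 and 136 CPM with DMSO and 155 and 151 CPM with ACBI-1 (log2 fold change 0.19 ± 0.05 with adjusted p = 0.00581). No groups overlapped. The MOLT-4 call was lost with library size alone (0.11) and on removal of ACBI-1 replicate 1 (0.17, adjusted p = 0.0643). UQCRB, a quinone-binding subunit, had 57.8 and 54.9 CPM with DMSO and 68.3 and 73.7 CPM with ACBI-1 in DND-41 (log2 fold change 0.35 ± 0.07 with adjusted p = 7.41e-04), with both treated libraries above both controls. The level in MOLT-4 was 82.2 and 90.4 CPM with DMSO and 87.5 and 90.9 CPM with ACBI-1, and the groups overlapped (0.04 ± 0.06, adjusted p = 0.592). UQCR10 was called in DND-41 with overlapping groups (log2 fold change 0.26 ± 0.10 with adjusted p = 0.0380), and its fold change was 0.06 without ACBI-1 replicate 1 and 0.19 without DMSO replicate 2, with no call. UQCRH, the hinge protein, was lower in MOLT-4 (log2 fold change -0.20 ± 0.07 with adjusted p = 0.0237) and lost its call on removal of either replicate 2 library, at -0.16 (ACBI-1, adjusted p = 0.186) and -0.12 (DMSO, 0.205). The Rieske protein gene UQCRFS1 was at -0.14 ± 0.08 and -0.02 ± 0.06, and UQCRC2 at 0.15 ± 0.06 and 0.08 ± 0.05, without calls.

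Complex IV, cytochrome c oxidase, has a mitochondrially encoded catalytic core, and its nuclear subunits surround that core. Of 11 members, 1 was lower and none higher in DND-41, where 23.2% of all genes tested were lower and 20.0% higher. In MOLT-4, 1 was higher and none lower, where 20.7% and 24.4% of all genes were. The medians of the members were 0.04 in both. Without ACBI-1 replicate 2 the rises in DND-41 numbered 4, and without ACBI-1 replicate 1 the falls numbered 2. COX7C had 84.9 and 71.5 CPM with DMSO and 68.5 and 64.5 CPM with ACBI-1 in DND-41 (log2 fold change -0.22 ± 0.08 with adjusted p = 0.0346), and the call was lost in DESeq2, with library size alone, and on removal of DMSO replicate 1 (-0.10, adjusted p = 0.527). NDUFA4, which was named for complex I and is a subunit of complex IV, had 34.9 and 34.1 CPM with DMSO and 39.7 and 40.0 CPM with ACBI-1 in MOLT-4 (log2 fold change 0.21 ± 0.07 with adjusted p = 0.0232). Its groups did not overlap, and the call was lost in DESeq2, with library size alone (0.13), and on removal of ACBI-1 replicate 1, ACBI-1 replicate 2 or DMSO replicate 2 (0.22, 0.21 and 0.19, with adjusted p of 0.0541, 0.0856 and 0.0519). The ubiquitous COX4I1 had 130 and 118 CPM with DMSO and 133 and 120 CPM with ACBI-1 in DND-41 and 137 and 153 CPM with DMSO and 136 and 139 CPM with ACBI-1 in MOLT-4, with overlapping groups in both. COX7A2 was at -0.10 ± 0.08 and 0.16 ± 0.07 and was not called. Members without a call ran from -0.10 to 0.17 in DND-41 and from -0.08 to 0.16 in MOLT-4.

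ATP synthase consists of a catalytic F1 head, a rotating ring of c subunits in the membrane, and a stalk that holds the head in place. Of its 15 members, 2 were lower and none higher in DND-41, where 23.2% of all genes tested were lower and 20.0% higher. In MOLT-4, 2 were higher and 1 lower, where 20.7% and 24.4% of all genes were. The lowered members belonged to the F1 head. In DND-41, 5 rises were called without ACBI-1 replicate 2 and 4 falls without ACBI-1 replicate 1. ATP5A1, its alpha subunit, had 176 and 174 CPM with DMSO and 154 and 128 CPM with ACBI-1 in DND-41 (log2 fold change -0.30 ± 0.07 with adjusted p = 0.00510). MOLT-4 libraries held 270 and 272 CPM with DMSO and 224 and 246 CPM with ACBI-1 (log2 fold change -0.21 ± 0.06 with adjusted p = 0.00547). The treated libraries lay below both controls in each line, and the MOLT-4 call was lost without ACBI-1 replicate 1 (-0.14, adjusted p = 0.166). ATP5C1, the gamma subunit that forms the rotating shaft, had 167 and 160 CPM with DMSO and 134 and 124 CPM with ACBI-1 in DND-41 (log2 fold change -0.33 ± 0.06 with adjusted p = 6.17e-04). In MOLT-4 it had 162 and 157 CPM with DMSO and 155 and 149 CPM with ACBI-1, lower in both treated libraries by less than the threshold asked (-0.08 ± 0.05, adjusted p = 0.261). ATP5B, the catalytic beta subunit, was at -0.16 ± 0.07 and -0.12 ± 0.06. The delta subunit ATP5D was at 0.15 ± 0.06 and 0.13 ± 0.06, with treated libraries above the controls in both lines and no call.

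The c ring is built from 1 mature protein that the paralogs ATP5G1, ATP5G2 and ATP5G3 all encode. ATP5G2 had 368 and 344 CPM with DMSO and 418 and 454 CPM with ACBI-1 in MOLT-4 (log2 fold change 0.29 ± 0.06 with adjusted p = 5.98e-04). ATP5G1 had 102 and 104 CPM with DMSO and 127 and 122 CPM with ACBI-1 there (log2 fold change 0.26 ± 0.05 with adjusted p = 4.03e-04) and was not called with library size alone (0.18). ATP5G3 had 131 and 123 CPM with DMSO and 121 and 116 CPM with ACBI-1, with both treated libraries below the controls and no call (-0.10 ± 0.05). In DND-41 none of the 3 was called, at 0.19 ± 0.08, 0.09 ± 0.09 and -0.12 ± 0.06 for ATP5G2, ATP5G1 and ATP5G3. Whether their transcripts are alike enough for counting to divide reads among them was not tested. The 7 members of the stalk and membrane part showed no call and ran from -0.15 to 0.11 in DND-41 and from -0.13 to 0.07 in MOLT-4.

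Of the 4 genes that encode no subunit, NDUFA6-AS1 and ATP5SL rose in both lines. NDUFA6-AS1 (newer symbol NDUFA6-DT) is a noncoding RNA whose RefSeq start lies 161 bases from that of NDUFA6 on the opposite strand. It had 5.21 and 5.07 CPM with DMSO and 9.94 and 9.50 CPM with ACBI-1 in DND-41 (log2 fold change 0.93 ± 0.13 with adjusted p = 4.95e-05) and 5.82 and 5.46 CPM with DMSO and 8.51 and 9.35 CPM with ACBI-1 in MOLT-4 (log2 fold change 0.66 ± 0.13 with adjusted p = 4.72e-04). No other member rose as much in either line. NDUFA6 itself was not called, at 0.19 ± 0.10 and 0.13 ± 0.06. In the GENCODE 29 annotation 6.52% of the exon bases of NDUFA6-AS1 lie in exons of genes on the opposite strand. Whether the counting used strand is not given in the sources used here. ATP5SL (newer symbol DMAC2), an assembly factor of the complex I membrane arm, had 112 and 99.6 CPM with DMSO and 129 and 143 CPM with ACBI-1 in MOLT-4 (log2 fold change 0.35 ± 0.06 with adjusted p = 1.13e-04). In DND-41 it had 66.1 and 62.5 CPM with DMSO and 78.3 and 74.8 CPM with ACBI-1 (log2 fold change 0.27 ± 0.06 with adjusted p = 0.00398), a call lost without DMSO replicate 2 (0.22, adjusted p = 0.104). COX7A2L, which joins complexes III and IV into supercomplexes, was called in MOLT-4 (log2 fold change 0.20 ± 0.06 with adjusted p = 0.0160) and stood at 0.13 ± 0.06 in DND-41. Its MOLT-4 call was lost on removal of either ACBI-1 library (0.19 and 0.21), with DESeq2 (adjusted p = 0.0787) and in edgeR with library size alone (0.319). ATP5S was at -0.22 ± 0.19 and -0.02 ± 0.15, with overlapping groups.

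**Figure D2:**
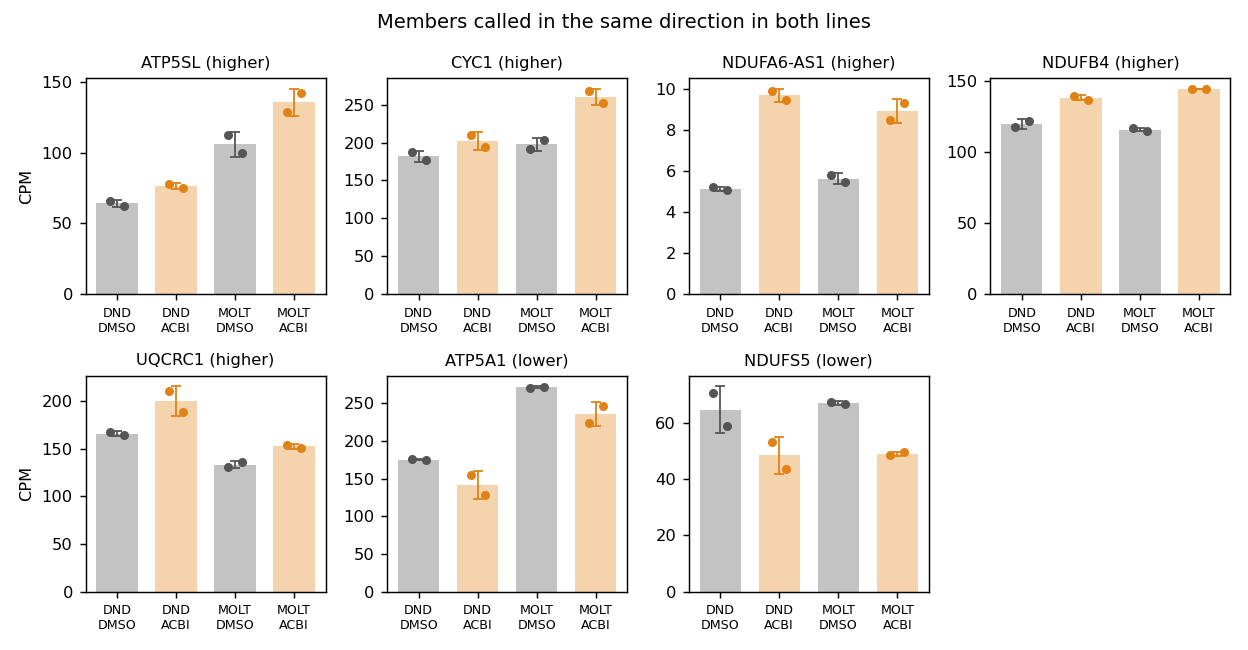
Levels in CPM (y axis, from 0) of 7 genes called in the same direction in both lines, by group on the x axis. Bars are means, whiskers are SD (n = 2 libraries) and points are single libraries. In each panel and line the 2 ACBI-1 points lie entirely above (5 genes) or below (2 genes) the DMSO points.

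The difference between the lines in the ACBI-1 effect was tested in a joint fit of the 8 libraries and is given as the MOLT-4 value less the DND-41 value. It was called for 2 of 77 members, 1 in each direction, where 7.18% of 15498 genes were called with a higher effect in MOLT-4 and 6.17% with a lower one. ATP5C1 fell in DND-41 and not by the test in MOLT-4 (difference 0.27 ± 0.08, adjusted p = 0.0347, edgeR). UQCRB rose in DND-41 and not by the test in MOLT-4 (difference -0.29 ± 0.09, adjusted p = 0.0449). Both calls were lost when single libraries were left out, with adjusted p up to 0.17 for ATP5C1 and up to 0.216 for UQCRB, and with DESeq2 (0.0513 and 0.0804). The other 75 members were not called, which does not show that they respond alike. Over the 77 genes the log2 fold changes of the lines had a Pearson's r of 0.70 and a Spearman's rho of 0.63, and over the 12859 genes tested in both lines r was 0.68. These are descriptions across genes, which are not independent replicates.

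More members were called between the DMSO libraries of the lines than within either line after ACBI-1, and the same held for all genes. Between the DMSO libraries, as MOLT-4 minus DND-41, 24 members were higher and 16 lower, where 34.7% of 14868 genes were higher and 32.7% lower. The median was 0.06 against 0.01 over all genes. Without both MOLT-4 replicate 2 libraries the counts were 19 and 11, and with library size alone 19 and 21. NDUFA4 was the member with the largest difference, at 82.8 and 75.5 CPM in DND-41 and 34.9 and 34.1 CPM in MOLT-4 (log2 fold change -1.20 ± 0.07 with adjusted p = 6.63e-12, edgeR). COX7A2 followed, at 77.1 and 66.1 CPM in DND-41 and 35.4 and 35.4 CPM in MOLT-4 (log2 fold change -1.02 ± 0.07 with adjusted p = 4.46e-10). NDUFA1, an X-linked accessory subunit of complex I, was at 19.8 and 19.9 CPM in DND-41 and 9.86 and 11.6 CPM in MOLT-4 (log2 fold change -0.89 ± 0.10 with adjusted p = 2.56e-07). These 3 were lower in both MOLT-4 libraries, and NDUFA4 and COX7A2 were the only members that differed 2-fold.

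Higher in MOLT-4 were ATP5SL (0.72 ± 0.06), NDUFV3 (0.66 ± 0.07, an accessory subunit at the NADH-oxidising tip of complex I) and ATP5A1 (0.63 ± 0.05), with adjusted p of 5.46e-09, 6.57e-08 and 1.30e-09. Among all genes tested the shares were 34.7% higher and 32.7% lower. By complex, 7 of 15 genes of ATP synthase were higher and 1 lower (ATP5G2, -0.16 ± 0.06). The 11 genes of complex IV were divided, with COX4I1, COX5A, COX5B and COX6C higher and COX7A2, COX7B, COX8A and NDUFA4 lower. Complex I had 10 higher and 8 lower, complex II 1 lower (SDHD, -0.29 ± 0.07), and complex III 2 higher (UQCRB and UQCRQ) and 2 lower (UQCRC1 and UQCRFS1). UQCRB, which rose in DND-41, was higher in MOLT-4 with DMSO (0.61 ± 0.06). Of the 40 calls 30 held in every alternative fixed with the design. NDUFA4L2, the hypoxia-inducible relative of NDUFA4, was at 7.68 and 8.40 CPM in DND-41 and 1.36 and 1.54 CPM in MOLT-4 (-2.46 ± 0.19, adjusted p = 7.69e-10).

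**Figure D3:**
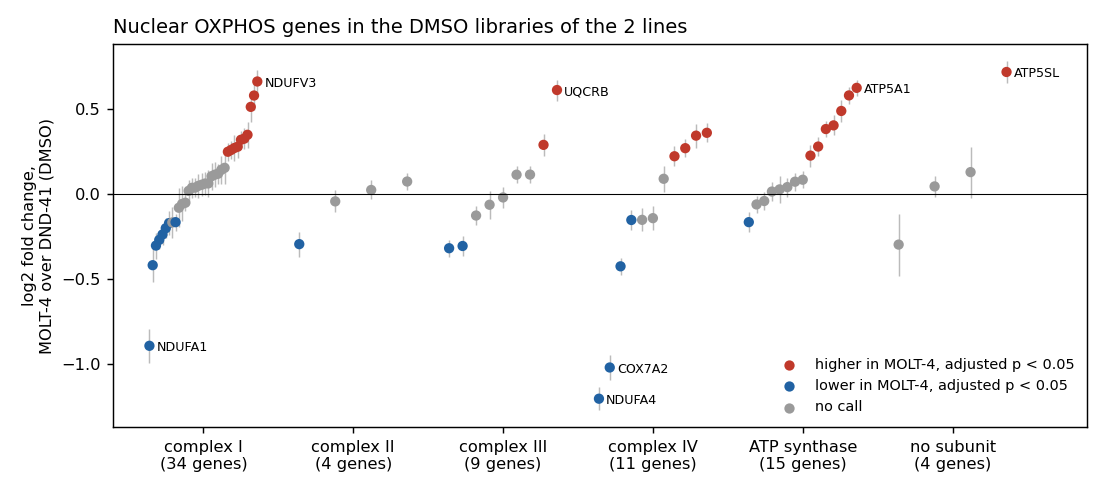
Log2 fold change (MOLT-4 over DND-41, DMSO libraries only, ± SE) of the 77 genes by complex, with red and blue for genes called higher or lower in MOLT-4 at an edgeR adjusted p below 0.05. NDUFA4 (-1.20) and COX7A2 (-1.02) are the lowest points, and ATP5SL (0.72) is the highest.

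To compare genes, levels were divided by the length of the annotated exons, as CPM per kilobase, with means ± SD of the 2 DMSO libraries. The median over the genes of a complex was highest for ATP synthase (95.3 in DND-41 and 97.3 in MOLT-4), followed by complex IV (66.7 and 70.4), complex III (51.2 and 62.8), complex II (29.9 and 29.5) and complex I (24.2 and 25.6). The order was the same in both lines. The highest member was ATP5B (358 ± 0.744 and 369 ± 12.4), followed in both lines, in different orders, by the complex I core subunit NDUFS8 (268 ± 2.28 and 335 ± 10.8), the complex IV subunit COX8A (287 ± 4.12 and 214 ± 2.64) and the ATP synthase subunit ATP5J2 (236 ± 6.39 and 309 ± 0.934). The complex IV subunit COX6B1 (235 ± 32.4 and 212 ± 5.51) came next, within the spread of ATP5J2 in DND-41 and of COX8A in MOLT-4. The leading genes of complexes II and III were SDHB (68.1 ± 0.414 and 69.4 ± 3.15) and CYC1 (147 ± 5.72 and 159 ± 6.66). The lowest subunits were NDUFA9 (1.39 ± 0.158 and 1.32 ± 0.0970) and SDHC (3.60 ± 0.0758 and 3.51 ± 0.107). The annotated exons of NDUFA9 sum to 8642 bases over all its transcripts, and those of SDHC to 13566, the most of any member. The levels per length of both are understated if shorter forms prevail. The same limit applies to other members, such as NDUFS1 with 11918 bases, and so to the medians by complex.

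The summed level of the 77 genes was 6888 and 6543 CPM with DMSO and 7182 and 6491 CPM with ACBI-1 in DND-41, with overlapping groups. In MOLT-4 it was 6973 and 7121 CPM with DMSO and 7226 and 7280 CPM with ACBI-1. By complex, the sum for complex III was 889 and 838 CPM against 991 and 897 CPM in DND-41 and 856 and 892 CPM against 977 and 957 CPM in MOLT-4, so the treated libraries lay above both controls in each line. For ATP synthase the sums overlapped in DND-41 (2490 and 2384 CPM against 2503 and 2231 CPM) and in MOLT-4 (2678 and 2704 CPM against 2692 and 2716 CPM). Those of complexes I and IV also overlapped in both lines. The sum for complex II overlapped in DND-41 and lay above both controls in MOLT-4 (264 and 270 CPM against 272 and 275 CPM).

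Of the 13 subunits encoded in mitochondrial DNA none was called in DND-41, where 20.0% of all genes were higher and 23.2% lower. In MOLT-4, 11 were higher, with a median log2 fold change of 0.65, where 20.7% of all genes were higher and 24.4% lower. The DND-41 count turned on single libraries, with 10 lower and none higher without ACBI-1 replicate 1, 11 higher and none lower without ACBI-1 replicate 2, and 2 higher without DMSO replicate 2. In MOLT-4 the count stayed between 10 and 13 higher with 1 library left out. MT-ATP8, a subunit of ATP synthase, had 2899 and 2169 CPM with DMSO and 4324 and 7406 CPM with ACBI-1 in MOLT-4 (log2 fold change 1.21 ± 0.17 with adjusted p = 1.14e-05, edgeR). MT-ND6, a subunit of complex I, had 1534 and 1167 CPM with DMSO and 2292 and 3491 CPM with ACBI-1 (log2 fold change 1.09 ± 0.14 with adjusted p = 3.57e-06). The difference between lines was called for 6 of the 13, all with a higher effect in MOLT-4. Of all genes tested, 7.18% were called with a higher effect in MOLT-4 and 6.17% with a lower one. None of the 13 was called with DESeq2 and none without DND-41 DMSO replicate 2. The count was 3 without DND-41 ACBI-1 replicate 2, 1 without MOLT-4 ACBI-1 replicate 2 and 1 without MOLT-4 DMSO replicate 2. Removal of DND-41 ACBI-1 replicate 1 or MOLT-4 DMSO replicate 1 raised the count to 11 and 10. Their summed level varied between replicates, at 179812 and 127545 CPM with DMSO and 204786 and 248577 CPM with ACBI-1 in MOLT-4, and at 109166 and 120425 CPM against 140170 and 99306 CPM in DND-41. With DESeq2 6 of 13 were called in MOLT-4, and without both MOLT-4 replicate 2 libraries none was called, at 0.56 for MT-ATP8 and 0.57 for MT-ND6.

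Among 15 tested regulators of mitochondrial genes, 5 were higher and 3 lower in DND-41, where 20.0% and 23.2% of all genes were. In MOLT-4, 7 were higher and 3 lower, where 20.7% and 24.4% of all genes were. The GABP subunits GABPA and GABPB1 rose in both lines. GABPA, the DNA-binding subunit, had 36.6 and 35.5 CPM with DMSO and 62.5 and 65.3 CPM with ACBI-1 in DND-41 (log2 fold change 0.84 ± 0.07 with adjusted p = 1.40e-07) and 55.0 and 53.8 CPM with DMSO and 88.0 and 87.3 CPM with ACBI-1 in MOLT-4 (log2 fold change 0.68 ± 0.06 with adjusted p = 1.27e-08). GABPB1, its partner, rose by 0.61 ± 0.07 (adjusted p = 7.46e-06) and 0.82 ± 0.07 (adjusted p = 1.05e-08). No library of one group reached the other. The nuclear receptor ESRRA fell, with 24.1 and 22.8 CPM with DMSO and 8.13 and 9.82 CPM with ACBI-1 in DND-41 (log2 fold change -1.37 ± 0.11 with adjusted p = 1.16e-07) and 29.2 and 27.3 CPM with DMSO and 15.4 and 14.8 CPM with ACBI-1 in MOLT-4 (log2 fold change -0.90 ± 0.09 with adjusted p = 4.48e-08). Its coactivator PPARGC1B was lower at -0.78 ± 0.09 (adjusted p = 5.99e-06) in DND-41 and -0.25 ± 0.08 (adjusted p = 0.0122) in MOLT-4. The MOLT-4 call was lost with DESeq2 (adjusted p = 0.127), on removal of ACBI-1 replicate 2 (-0.22, 0.0693) or DMSO replicate 1 (-0.19, 0.104), and with both replicate 2 libraries left out (-0.29, 0.121). PPARGC1A was too low to test. YY1 fell in MOLT-4 (log2 fold change -0.27 ± 0.05 with adjusted p = 2.50e-04). Of genes chosen after their values were seen, NRF1 was not called (0.03 ± 0.07 and 0.10 ± 0.08), and MYC was lower in DND-41 (-0.43 ± 0.06) and higher in MOLT-4 (0.28 ± 0.06, not called with library size alone), with a called difference between lines (0.72 ± 0.08, adjusted p = 5.38e-06). ATP5J, a coupling subunit whose RefSeq start lies 82 bases from that of GABPA on the opposite strand, had 88.0 and 84.5 CPM with DMSO and 92.3 and 91.0 CPM with ACBI-1 in DND-41 and 130 and 129 CPM with DMSO and 127 and 123 CPM with ACBI-1 in MOLT-4 and was not called (0.10 ± 0.06 and -0.05 ± 0.05). In the annotation 31.1% of its exon bases lie in exons of GABPA or JAM2 on the other strand.

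**Figure D4:**
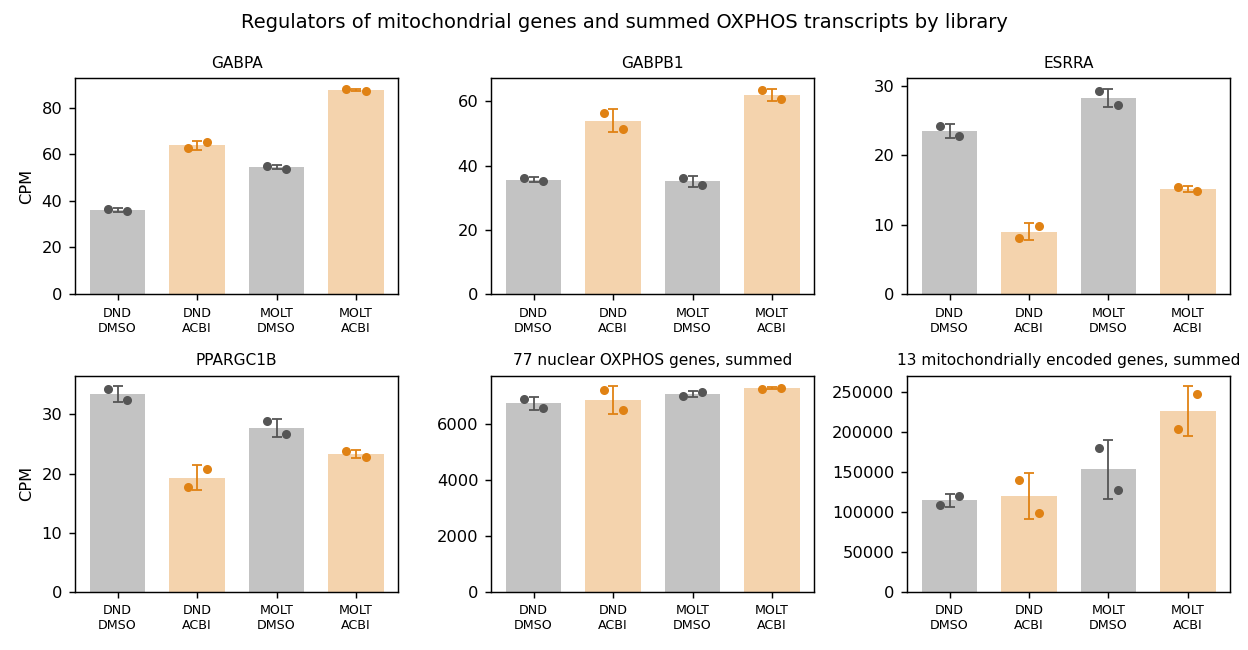
Levels in CPM (y axes, from 0) of GABPA, GABPB1, ESRRA and PPARGC1B and the summed levels of the 77 nuclear and 13 mitochondrially encoded genes, by group on the x axis, with means as bars, SD as whiskers (n = 2 libraries) and single libraries as points. GABPA and GABPB1 are higher and ESRRA lower with ACBI-1 in both lines, PPARGC1B is lower in both with a MOLT-4 call that single libraries removed, and the nuclear sum stays between 6491 and 7280 CPM and the mitochondrial sum spreads from 99306 to 248577 CPM.

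Assembly factors were called in both directions. Over all genes tested, 20.0% were higher and 23.2% lower in DND-41, and 20.7% and 24.4% in MOLT-4. For complex I, 2 of 15 were higher and 3 lower in DND-41, and 1 was higher and 1 lower in MOLT-4. In DND-41, 4 were higher and 4 lower without ACBI-1 replicate 2, and 2 lower without DMSO replicate 2. In MOLT-4 none was lower when any 1 library was left out, and 3 were higher without DMSO replicate 2 and 2 without ACBI-1 replicate 2. ECSIT, an assembly factor that also acts in innate immune signalling, rose in both lines (0.53 ± 0.07, adjusted p = 3.23e-05, and 0.62 ± 0.07, adjusted p = 3.71e-07). NDUFAF5, a hydroxylase that modifies a complex I subunit, had 24.8 and 22.5 CPM with DMSO and 40.7 and 39.6 CPM with ACBI-1 in DND-41 (log2 fold change 0.77 ± 0.08 with adjusted p = 1.37e-06). In MOLT-4 it had 18.1 and 19.1 CPM with DMSO and 16.2 and 15.7 CPM with ACBI-1 (log2 fold change -0.23 ± 0.09 with adjusted p = 0.0499), a call lost when any 1 of the MOLT-4 libraries was left out (adjusted p = 0.0535 to 0.223) and with DESeq2 (0.278). The difference between lines was called (-0.99 ± 0.12, adjusted p = 1.18e-05). TMEM186 fell in DND-41 (-0.85 ± 0.13, adjusted p = 8.50e-05) and was at 0.06 ± 0.17 in MOLT-4, and this difference was called (0.93 ± 0.23, adjusted p = 0.00967).

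For complex II, 1 of 4 factors was higher in each line, C6orf57 (SDHAF4, 0.36 ± 0.13 and 0.50 ± 0.15), a call lost with DESeq2 in both lines and, among others, without DMSO replicate 2 of either line (adjusted p = 0.215 and 0.0527). For complex III, 1 of 6 was higher and 3 lower in DND-41 and 1 higher and 1 lower in MOLT-4, with 2 higher in DND-41 without ACBI-1 replicate 2. UQCC2 rose (0.37 ± 0.07 and 0.44 ± 0.07, adjusted p = 6.67e-04 and 6.08e-05), and C11orf83 (UQCC3) fell (-0.91 ± 0.12 and -0.50 ± 0.12, adjusted p = 3.39e-05 and 0.00272), so the 2 factors, both needed for early assembly around cytochrome b, moved in opposite directions. For complex IV, 3 of 23 were higher and 3 lower in DND-41, and 3 higher and 1 lower in MOLT-4. The falls in DND-41 numbered 5 without ACBI-1 replicate 1, 2 without ACBI-1 replicate 2 and 1 without DMSO replicate 1. Those in MOLT-4 numbered 2 without ACBI-1 replicate 2 and 3 without DMSO replicate 1, and with 1 library left out 2 or 3 rises were called in each line. COA7, a heme-binding factor, fell in both lines (-0.88 ± 0.12 and -0.60 ± 0.11, adjusted p = 3.09e-05 and 2.40e-04), and COA4 rose in both (0.29 ± 0.06 and 0.44 ± 0.07, adjusted p = 0.00185 and 2.56e-05). For ATP synthase, ATPAF1, which assists the beta subunit, fell (-0.30 ± 0.08 and -0.41 ± 0.06), and ATPAF2, which assists the alpha subunit, rose (0.39 ± 0.09 and 0.31 ± 0.09), all 4 called. The ATPAF1 call in DND-41 was lost without DMSO replicate 1 (-0.20). The ATPAF2 call in MOLT-4 was lost without ACBI-1 replicate 1 (0.26), with DESeq2 (adjusted p = 0.102) and in edgeR with library size alone (0.0938). The COA4 call in DND-41 was lost without DMSO replicate 1 (0.25, adjusted p = 0.0633).

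The tricarboxylic acid cycle supplies NADH and succinate to complexes I and II. Of 14 genes outside complex II, 3 were higher and 4 lower in DND-41, where 20.0% and 23.2% of all genes were. In MOLT-4, 1 was higher and 4 lower, where 20.7% and 24.4% of all genes were. In DND-41, 1 was higher and 3 lower without DMSO replicate 1, 1 higher and 2 lower without DMSO replicate 2, and 2 higher and 5 lower without ACBI-1 replicate 1. In MOLT-4, 3 were higher without DMSO replicate 2. IDH3A, the catalytic subunit of NAD-dependent isocitrate dehydrogenase, had 30.5 and 31.4 CPM with DMSO and 18.9 and 16.9 CPM with ACBI-1 in DND-41 (log2 fold change -0.78 ± 0.08 with adjusted p = 3.68e-06). In MOLT-4 it had 31.7 and 35.4 CPM with DMSO and 25.1 and 25.5 CPM with ACBI-1 (log2 fold change -0.41 ± 0.08 with adjusted p = 1.95e-04). Citrate synthase, CS, fell in DND-41 (-0.41 ± 0.06, adjusted p = 4.58e-05) and was at 0.01 ± 0.06 in MOLT-4, with a called difference (0.45 ± 0.08, adjusted p = 0.00124) that was lost with both MOLT-4 replicate 2 libraries left out. Of 75 mitochondrial ribosomal protein genes, which serve to translate the mitochondrially encoded subunits, 10 were higher and 7 lower in DND-41, and 17 were higher and 9 lower in MOLT-4. In DND-41 the rises numbered 20 without ACBI-1 replicate 2 and 6 without DMSO replicate 2, and the falls 4 without DMSO replicate 1. In MOLT-4 the falls numbered 4 without ACBI-1 replicate 1 and 3 without ACBI-1 replicate 2, and the rises 12 to 19 with 1 library left out. MRPL16 fell in both lines (-0.35 ± 0.08 and -0.78 ± 0.07), and MRPL52 rose in both (0.57 ± 0.08 and 0.42 ± 0.07). The electron carrier cytochrome c, CYCS, was higher in MOLT-4 (log2 fold change 0.19 ± 0.05 with adjusted p = 0.00754) and stood at 0.14 ± 0.06 in DND-41. Its MOLT-4 call was lost without ACBI-1 replicate 2 (0.15) and in edgeR with library size alone (0.11, adjusted p = 0.290).

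Counts of several members could hold reads of other genes or miss their own. Among rows named like pseudogenes of these families 132 were left out, and reads that match a gene and its copy may have been divided or dropped by counting rules not given here. In the GENCODE 29 annotation 17 of 77 members share exon bases with another gene on the same strand, and for ATP5O and NDUFB8 this is over 50% of their exon bases (70.3% and 65.4%). On the opposite strand 26 members share exon bases, and for NDUFS7 the share is over 50% (55.1%). Of the genes called in both lines, NDUFA6-AS1 shares exon bases with other genes, and NDUFB4, NDUFS5, UQCRC1, CYC1, ATP5A1 and ATP5SL share none.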

How the data were processed

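RNA-seq libraries of DND-41 and MOLT-4 cells were strand-specific and paired-end with reads of 100 bases, per the labels' protocols. The authors deposited raw counts per gene for each library. STAR 2.5.2a, featureCounts, DESeq2 1.12.4 and the hg19 build are named in the submitters' processing notes, while annotation and strand setting are not given here. The authors' deposited comparison tables hold log2 fold changes, p-values and test scores whose direction is not stated, and they were used here for gene symbols only.

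Counts were scaled by TMM and filtered with filterByExpr (minimum count 10) in edgeR 4.0.16 under R 4.3.3. They were tested with the quasi-likelihood F test within each line (4 libraries), between the DMSO libraries, and for the difference between lines over all 8 libraries. Adjusted p-values (Benjamini-Hochberg, 0.05) cover all genes tested. Each SE was derived from the F statistic and the fold change. Exon lengths and overlaps came from GENCODE 29 by gene identifier, and promoters and coordinates from RefSeq (GRCh38.p14). The NRF1 motif was shortened to its core after a longer form had been searched. A count of 3 corresponds to about 0.15 CPM. The tests were checked on simulated counts.

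The members and lists were chosen with earlier results of these data known. Full statistics went to called members with the largest changes per complex, line and comparison (groups not overlapping), to the extremes of level per length, to paralogs, non-subunits and degrader targets, and to genes of smallest adjusted p in each list (regulators, assembly factors, tricarboxylic acid cycle, mitochondrial ribosome, mitochondrially encoded subunits). Other named genes were chosen after their values were seen. Alternatives were other scalings, filters, thresholds and designs, DESeq2 1.42.0 and leaving out libraries. Leaving out mitochondrially encoded genes or both MOLT-4 replicate 2 libraries was chosen after seeing the data. The values of 1 member are not reported here, and it is kept in the counts and medians.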

Additional observations from a re-analysis of the deposited data

Results flagged for a closer look

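The response to ACBI-1 differed between the lines by edgeR's test of the difference itself for 2 members, ATP5C1 (0.27, MOLT-4 minus DND-41 on the log2 scale) and UQCRB (-0.29). ATP5C1, the gamma subunit of ATP synthase, was lower in DND-41 and not called in MOLT-4. UQCRB, a complex III subunit, was higher in DND-41 and not called in MOLT-4. Both kept their direction in every alternative run and lost their call in several, among them without both MOLT-4 replicate 2 libraries (edgeR adjusted p = 0.251 and 0.242).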

How the results depend on the processing

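With 2 libraries a group, calls of about 0.2 on the log2 scale rest on single libraries. No called member changed sign in any alternative. Leaving out 1 library at a time gave 4 to 30 higher and 3 to 11 lower members in DND-41 (median -0.04 to 0.11), 8 to 13 and 3 to 8 in MOLT-4 (median 0.00 to 0.07), 0 to 4 in each direction for the difference between lines (median -0.05 to 0.09), and 20 to 26 and 11 to 18 between DMSO libraries. By complex, higher and lower calls ran in DND-41 from 1 to 14 and 1 to 3 (complex I), 2 to 5 and 0 to 2 (III), 0 to 4 and 0 to 2 (IV), and 0 to 5 and 2 to 4 (ATP synthase), and in MOLT-4 from 3 to 5 and 2 to 5 (I), 1 to 2 and 0 to 1 (III), 0 to 1 and 0 to 1 (IV), with 0 to 1 lower for ATP synthase.

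DESeq2 gave 2 higher in complex III and 0 lower in complex IV in DND-41, 0 lower in complex III and 0 higher in complex IV in MOLT-4, and 0 and 0 for the difference. Its size factors in edgeR gave 2 lower for the difference, and a fit of all 8 libraries 0 higher in complex IV of MOLT-4. Without both MOLT-4 replicate 2 libraries MOLT-4 had 2 higher and 1 lower, with 1 and 1 in complex I, 1 and 0 in III, 0 higher in IV and 0 and 0 in ATP synthase, and the difference 0 and 0. Library size alone gave 2 higher in ATP synthase and 0 lower in complex IV in DND-41. In MOLT-4 it gave 6 higher and 8 lower (median -0.05), with 5 lower in complex I, 1 higher in III, 0 higher in IV, and 1 higher and 2 lower in ATP synthase. The difference was then 0 and 3 (median -0.10) and the DMSO median -0.04. Without mitochondrially encoded genes, ATP synthase had 1 higher in DND-41 and the difference 0 and 2. With no filter DND-41 had 8 higher, with 4 in complex I, 2 in III and 0 lower in IV, and the difference 0 and 3. The stricter filter gave 8 lower in MOLT-4, with 5 in complex I and 2 in ATP synthase, and 2 lower for the difference. A threshold of 0.01 gave 8 higher in DND-41, with 4 in complex I, 2 in III and 0 lower in IV, 0 lower in III and 0 higher in IV in MOLT-4, and 0 and 0 for the difference.

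Replicate numbers are shared between groups. The labels do not say that these numbers pair libraries, so they were not taken as pairs. Deviations of same-numbered libraries correlated at 0.04 in DND-41 and 0.22 in MOLT-4 over 15498 genes (0.31 and -0.03 over the 77 members). These values do not decide whether the libraries are pairs. The replicate block gave 22 higher and 8 lower in DND-41, with 2 lower in complex III, 3 higher in IV and 2 and 4 in ATP synthase. It gave 12 and 7 in MOLT-4, with 5 lower in complex I, 3 and 3 for the difference, and 24 and 15 between DMSO libraries.

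Uncalled genes turned sign. Leaving out 1 library gave in DND-41 -0.07 (without ACBI-1 replicate 1) to 0.24 for ATP5G1, -0.01 (the same library) to 0.32 for NDUFA4 and -0.01 (the same) to 0.36 for NDUFA6. It gave -0.52 to 0.16 (without DMSO replicate 1) for ATP5S, -0.21 to 0.01 (the same) for COX7A2 and -0.03 (the same) to 0.08 for the regulator NRF1. In MOLT-4 ATP5S ran from -0.05 to 0.03 (without ACBI-1 replicate 1 or DMSO replicate 2), and between DMSO libraries from -0.60 to 0.09 (without DND-41 replicate 1). Library size alone gave -0.03 for ATP5G3 and -0.05 for COX7A2L between DMSO libraries, where it moved the median of all genes from 0.01 to -0.09 as well. The causes were not tested.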
